A study of Mus musculus with 4 samples.

Results

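The lipid-sensing nuclear receptors of the PPAR, LXR and RXR families and the PGC-1 coactivators were examined in Treg cells held with TSLP or with PBS. The genes were taken by name, 9 of the 24418 genes listed, namely Ppara, Ppard, Pparg, Rxra, Rxrb, Nr1h2, Nr1h3, Ppargc1a and Ppargc1b. All 9 were in the table, and 6 had a value of at least 10 in at least 2 libraries and were tested. Sorted Treg cells from spleens and lymph nodes of Foxp3YFP-Cre mice were held for 3 h with PBS or with 100 ng/mL of the epithelial cytokine TSLP, in 2 samples of each group (PBS 1, PBS 2, TSLP 1 and TSLP 2). Both groups carried the Foxp3YFP-Cre allele, which makes a yellow fluorescent protein and Cre from the Foxp3 locus. The mice of the study were 8 to 12 weeks old, and the strain behind these samples and whether the samples of a group came from separate mice were not given in the sources used here. P-values therefore measure the spread between these samples, which may be technical. The libraries held 11328132 (PBS 1), 10724392 (PBS 2), 11761234 (TSLP 1) and 10271571 (TSLP 2) reads on genes. Where a gene had no reads, the limit was set at 3 reads. This limit covers counting error only, since copies made by PCR were counted as reads.

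PPARs bind fatty acids and their derivatives, and LXRs bind oxidized forms of cholesterol. Both pair with an RXR, whose own ligands are retinoids and fatty acids, and the pairs sit on DNA at repeats of a short half-site, where ligand exchanges corepressors for coactivators. PPARs are known for switching on genes of fatty acid oxidation and storage, LXRs for genes of cholesterol export and fatty acid synthesis, and PGC-1 coactivators for mitochondrial genes. In Treg cells PPARγ is known from a population in visceral fat, where it favors lipid uptake.

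Among the PPAR, LXR and RXR genes, 1 gene of each family gave most of the level. Nr1h2, which encodes LXRβ, had the highest level of the 9 genes, followed by Rxrb, Ppard and Rxra, while Pparg and Ppargc1b were low and Nr1h3, Ppara and Ppargc1a were at or near no reads. Levels were compared between genes as RPKM, the reads per 1000 bases of exon and 1000000 reads on genes. The level of Nr1h2 was 58.5 ± 14.4 RPKM (SD over the 4 libraries), above that of 93.1% of the 10944 tested genes with an exon length. Rxrb was at 13.9 ± 2.78 RPKM, Ppard at 9.0 ± 1.74 and Rxra at 5.40 ± 0.814, and the median tested gene, at 6.98 RPKM, lay between Ppard and Rxra. No library of a higher gene in this order of the first 4 reached down to any library of the next. Pparg (1.54 ± 1.02 RPKM) and Ppargc1b (1.42 ± 0.593 RPKM) could not be ordered, since their libraries overlapped. Nr1h3 was at 0.182 ± 0.275 RPKM. With the length of the longest transcript in place of all exons, the order stayed and Rxrb (16.8 to 25.9 RPKM) overlapped Ppard (13.4 to 21.2 RPKM). Fewer cells that express a gene and less RNA per cell cannot be told apart in these samples.

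**Figure D1:**
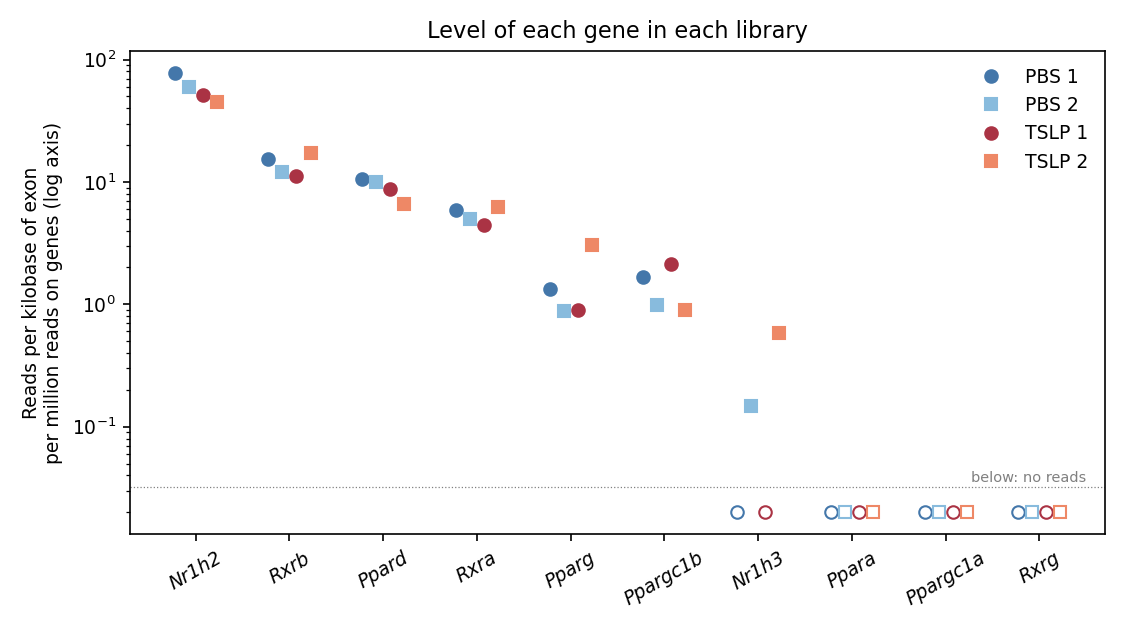
Level of each receptor and coactivator gene in each library, in RPKM on a log axis, with open symbols for no reads. Nr1h2 stands highest in all 4 libraries at 44.9 to 78.1, and Ppara, Ppargc1a and Rxrg have open symbols throughout.

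The start regions of 8 of the genes were found in the RefSeq promoter table (GRCm38.p6) in 13 windows, each from 250 bases before to 50 bases after a start. Ppargc1b was not among them. The stretches below are shown for the pair whose libraries did not overlap between the groups (Nr1h2 and Ppard), for the start of Rxra that holds half-sites, and for Ppargc1a, which had no reads. They are cut to the bases before the start that lie in no annotated exon, and capitals mark the half-site AGGTCA and the GC box GGGCGG on either strand (TGACCT and CCGCCC).
Nr1h2, chr7:44553966-44554215, reverse strand: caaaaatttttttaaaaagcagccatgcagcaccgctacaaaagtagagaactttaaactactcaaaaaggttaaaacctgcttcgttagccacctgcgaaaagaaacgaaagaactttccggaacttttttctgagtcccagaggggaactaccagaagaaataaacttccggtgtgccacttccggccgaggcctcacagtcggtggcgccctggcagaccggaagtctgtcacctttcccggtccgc
Ppard, chr17:28232504-28232699, forward strand: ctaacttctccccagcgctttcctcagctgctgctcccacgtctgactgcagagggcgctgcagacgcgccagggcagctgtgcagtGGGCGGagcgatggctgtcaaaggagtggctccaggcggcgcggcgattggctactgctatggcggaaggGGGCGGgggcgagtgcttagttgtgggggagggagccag
Rxra, chr2:27709042-27709291, forward strand: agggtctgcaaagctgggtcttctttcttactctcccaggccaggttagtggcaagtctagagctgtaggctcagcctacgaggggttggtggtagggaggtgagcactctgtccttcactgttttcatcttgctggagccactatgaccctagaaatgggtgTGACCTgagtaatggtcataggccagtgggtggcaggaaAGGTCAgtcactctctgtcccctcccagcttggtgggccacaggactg
Ppargc1a, chr5:51567727-51567975, reverse strand: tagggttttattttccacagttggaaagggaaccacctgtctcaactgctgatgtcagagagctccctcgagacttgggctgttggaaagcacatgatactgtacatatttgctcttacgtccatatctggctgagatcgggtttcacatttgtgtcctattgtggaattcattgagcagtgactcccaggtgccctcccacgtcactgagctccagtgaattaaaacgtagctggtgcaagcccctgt
The half-site was in 3 of the 13 whole windows, where 16.3% of the 32851 windows of all genes held it, and the GC box was in 7 of the 13, where 35.7% of all windows held it. The shown stretch of Rxra, chosen for its half-sites, held 2 of them and that of Ppard 2 GC boxes, and those of Nr1h2 and Ppargc1a held neither. Another stretch of Rxra, not shown, held 0 half-sites and 3 GC boxes, with a GC content of 81.2%. GC content was 66.8% in the stretch of Ppard, 55.2% in that of Rxra, 48.4% in that of Nr1h2 and 48.2% in that of Ppargc1a. A match of letters is a description and not a site of binding, and these libraries hold no measure of binding.

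To ask whether TSLP moved the receptors, values were compared with limma on log2(normalized count + 1), where a normalized count is the read count divided by the size factor of its library, and positive fold changes are higher with TSLP. Adjusted p-values are those of limma over all genes by the Benjamini-Hochberg method. No member passed the test. By limma 0 of the 6 tested members and 0 of the 11392 genes tested (0%) passed 0.05 after adjustment, and 0 of the 6 against 192 of all genes (1.69%) had an unadjusted p under 0.05. edgeR and DESeq2 on the recovered reads each called 0 genes (0%) after adjustment, and 234 (2.05%) before it. Before adjustment Nr1h2 was the only member under 0.05 by DESeq2 (unadjusted p = 0.0483), and no member was by edgeR. In 2 of the 6 members, Nr1h2 and Ppard, both TSLP libraries lay below both PBS libraries, which was so for 14.4% of all genes tested, and in 0 of the 6 did both lie above, against 14.5% of all genes. In either direction the groups did not overlap in 28.9% of all genes.

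Nr1h2 (ENSMUSG00000060601.13) encodes LXRβ, the broadly expressed LXR, at 44549616 to 44553951 of chromosome 7 (mm10, reverse strand). It had 2967 reads in PBS 1 and 2154 in PBS 2, against 2015 in TSLP 1 and 1547 in TSLP 2. Normalized, these were 2876 and 2155 with PBS and 1898 and 1617 with TSLP. PBS 1 was the highest library and TSLP 2 the lowest, and the groups did not overlap. The group means were 2515 ± 509.6 (SD, n = 2) and 1758 ± 199 (SD, n = 2). The log2 fold change was −0.51 (standard error 0.24, 95% interval −1.04 to 0.03), and limma gave an adjusted p = 1.0 (0.0601 unadjusted). Leaving out PBS 1 gave −0.30 and leaving out PBS 2 gave −0.71, so that the value moved by over 1.5 times with PBS 1. The sign could not change, since the groups did not overlap. Its unadjusted p was under 0.05 in 3 of 11 other settings by limma, edgeR or DESeq2, and its adjusted p was at least 0.983 in each of those 11. As libraries were left out, its smallest value was an adjusted p = 0.265 by limma without PBS 2 (0.0135 unadjusted), a fit in which 1858 of 11392 genes (16.3%) had an unadjusted p under 0.05.

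Nr1h3 encodes LXRα, the LXR of macrophages and liver, and sits at 91184061 to 91202834 of chromosome 2 (reverse strand), where 34 bases of its exons are shared with Gm13783. It had 0 reads in PBS 1 and 4 in PBS 2, against 0 in TSLP 1 and 15 in TSLP 2. A library of each group had none, and the gene did not pass the filter. Of the summed level of both LXR genes per kilobase, Nr1h3 took 0%, 0.247%, 0% and 1.28% in PBS 1, PBS 2, TSLP 1 and TSLP 2, and Nr1h2 took the rest.

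Among the PPARs, Ppard had the highest level in every library. It encodes PPARδ, the widely expressed PPAR tied to fatty acid oxidation, and sits at 28232700 to 28301474 of chromosome 17 (forward strand). Its reads were 896 in PBS 1 and 811 in PBS 2, against 777 in TSLP 1 and 512 in TSLP 2. The normalized counts were 868.4 and 811.4 with PBS and 732 and 535 with TSLP. Both PBS libraries lay close together, and TSLP 2 was the lowest. The group means were 839.9 ± 40.3 (SD, n = 2) and 633.5 ± 139 (SD, n = 2). The log2 fold change was −0.42 (standard error 0.26, 95% interval −1.01 to 0.17), and limma gave an adjusted p = 1.0 (0.140 unadjusted). Without TSLP 2 it was −0.20, and without TSLP 1 it was −0.65. Its unadjusted p was under 0.05 in 1 of the 11 other settings, that with the length trend described below removed and the replicate number as a block (adjusted p = 1.0 by limma, 0.0456 unadjusted). In that fit 404 of 10944 genes (3.69%) were under 0.05 unadjusted.

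Pparg encodes PPARγ, the receptor of fat cells and of Treg cells in visceral fat, and sits at 115360951 to 115490399 of chromosome 6 (forward strand). It had 45 reads in PBS 1 and 28 in PBS 2, against 31 in TSLP 1 and 92 in TSLP 2. TSLP 2 stood above the other 3 libraries, and TSLP 1 lay between the PBS libraries. The normalized counts were 43.6 and 28.0 with PBS and 29.2 and 96.1 with TSLP. The change was 0.59 on the log2 scale, with a standard error of 0.84 and a 95% interval from −1.31 to 2.50 (limma adjusted p = 1.0, 0.501 unadjusted). Its sign rested on TSLP 2, without which it was −0.25. The share of Pparg in the summed level of the PPAR genes per kilobase was 11.3% in PBS 1 and 8.08% in PBS 2, against 9.22% in TSLP 1 and 31.4% in TSLP 2. Ppara encodes PPARα, the PPAR of liver and heart, and sits at 85734983 to 85802819 of chromosome 15 (forward strand). It had 0 reads in each of the 4 libraries, which allows up to 3 reads in each, or 0.0665 to 0.0761 RPKM.

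The RXRs are the shared partners of PPARs and LXRs. Rxrb encodes RXRβ and lies on chromosome 17 from 34031812 to 34038399, and Rxra encodes RXRα and lies on chromosome 2 from 27676440 to 27762957, both on the forward strand. The reads of Rxrb were 688 in PBS 1 and 517 in PBS 2, against 520 in TSLP 1 and 699 in TSLP 2. Those of Rxra were 368, 290, 288 and 348 in the same order. In both genes PBS 1 and TSLP 2 were the high libraries, and the groups overlapped. The log2 fold change of Rxrb was 0.03 (standard error 0.30, 95% interval −0.64 to 0.70) and that of Rxra was −0.03 (standard error 0.33, 95% interval −0.78 to 0.71), each at an adjusted p of 1.0 by limma. These intervals include changes of over 1.5-fold in either direction. The level of Rxrb per kilobase was 2.57, 2.45, 2.48 and 2.76 times that of Rxra in PBS 1, PBS 2, TSLP 1 and TSLP 2, so that the makeup of the RXR pool varied less between libraries than either level. Rxrg, the third RXR gene, had 0 reads in each library.

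**Figure D2:**
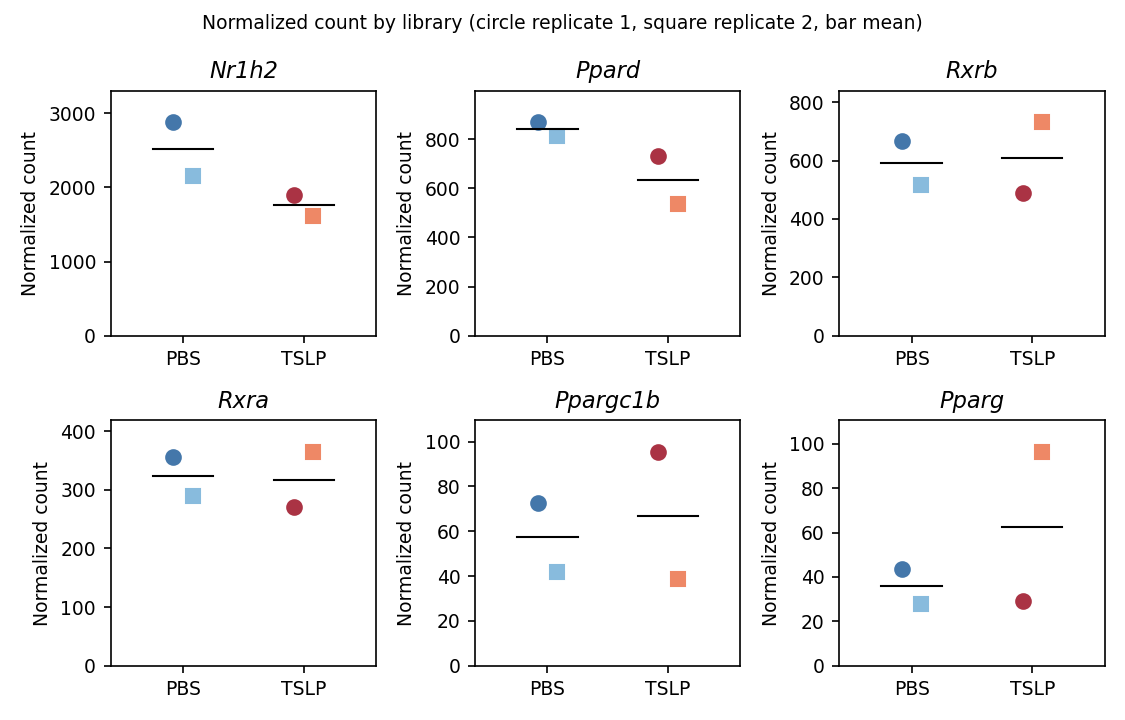
Normalized count of the 6 tested genes in each library, with PBS in blue, TSLP in red, circles for replicate 1, squares for replicate 2 and a bar at the mean of each group. The TSLP symbols lie below the PBS symbols for Nr1h2 and Ppard and overlap them for the other 4 genes.

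Of the PGC-1 coactivators, which dock on PPARs and other nuclear receptors, Ppargc1b (PGC-1β) had reads in every library and Ppargc1a (PGC-1α) had none. Ppargc1b sits at 61298136 to 61400431 of chromosome 18 (reverse strand). Its reads were 75 in PBS 1 and 42 in PBS 2, against 101 in TSLP 1 and 37 in TSLP 2. TSLP 1 was its highest library and TSLP 2 its lowest. The log2 fold change was 0.13 (standard error 0.73, 95% interval −1.51 to 1.78, limma adjusted p = 1.0), and it was −0.51 without TSLP 1 and 0.77 without TSLP 2. Ppargc1a sits at 51454250 to 51567726 of chromosome 5 (reverse strand). Its 0 reads in each library allow up to 3 reads, or 0.0387 to 0.0443 RPKM. The related coactivator Pprc1, which is counted with the coregulators below and was chosen after its values were seen, was at 12.9 ± 2.48 RPKM (SD over the 4 libraries), and each of its libraries lay above all those of Ppargc1b.

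**Figure D3:**
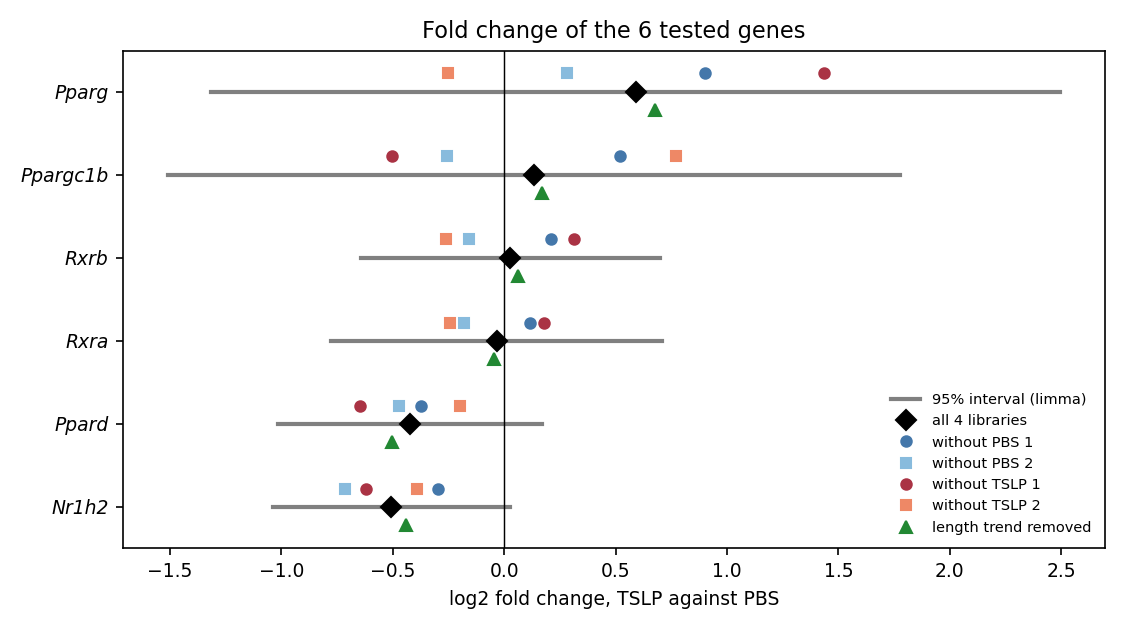
Log2 fold change, TSLP against PBS, of the 6 tested genes with all 4 libraries (diamond) and its 95% interval from limma (bar), with each library left out in turn (circles and squares) and with the trend over exon length removed (triangles). Nr1h2 and Ppard stay below 0 in each case, and the other 4 genes fall on both sides of 0 as libraries are left out. With a library left out, the sign of Nr1h2 and Ppard is fixed by groups that do not overlap.

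The spread between libraries of a group set what could be seen at each level. Over the 1738 genes tested with a mean normalized count from 30 to 100, where Pparg and Ppargc1b lie, the replicates differed by a median of 0.81 on the log2 scale with PBS and 0.68 with TSLP. For 1914 genes from 1000 to 3000, where Nr1h2 lies, the medians were 0.33 with PBS and 0.16 with TSLP. Replicate 1 of TSLP differed from replicate 2 by −1.69 in Pparg and by 1.28 in Ppargc1b on this scale, within the 1.92 that 90% of genes at this level did not exceed. For Nr1h2 the replicates differed by 0.42 with PBS and by 0.23 with TSLP.

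**Figure D4:**
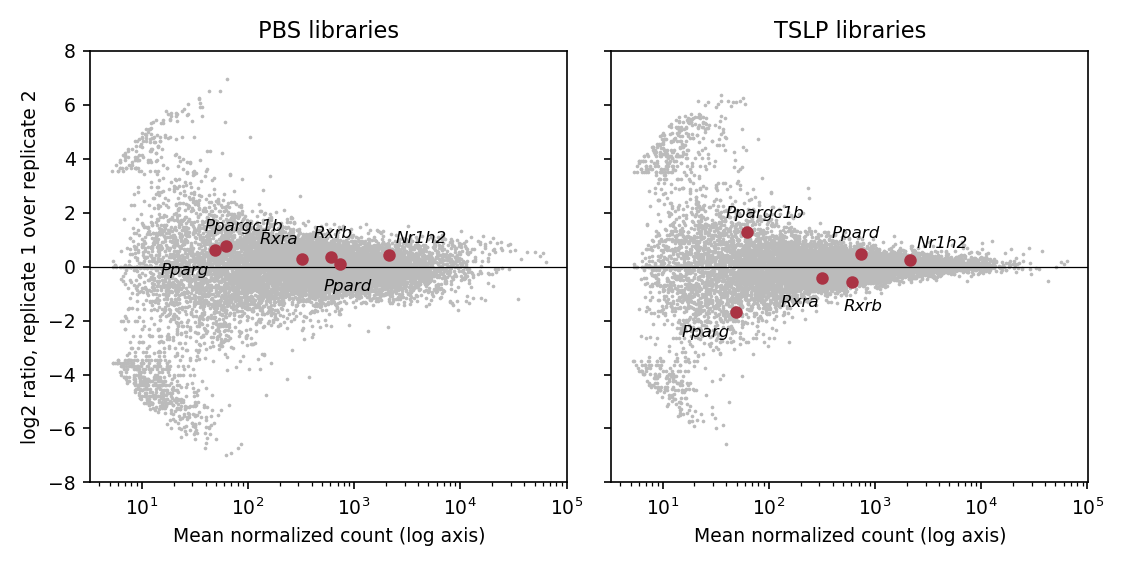
Log2 ratio of replicate 1 to replicate 2 within each group against the mean normalized count on a log axis, for the 11392 genes tested (grey) and the 6 tested members (red). The cloud widens towards low counts, and Pparg and Ppargc1b lie in its wide part.

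The libraries also differed with the length of genes. Genes of 2000 bases of exon were higher by 0.30 in PBS 1 than their mean over the 4 libraries (log2, fitted trend), and the same trend was −0.10 in PBS 2, −0.07 in TSLP 1 and −0.02 in TSLP 2. The fold change also differed with length, and 62.0% of 1449 genes shorter than 2000 bases and 27.7% of 1945 genes of 8000 bases or more were lower with TSLP. Nr1h2 has 3354 bases of exon, and 54.7% of the 1664 genes from 3000 to 4000 bases were lower with TSLP, with a median log2 fold change of −0.04. Ppard has 7514 bases, and of the 1560 genes from 6000 to 8000 bases the median was 0.06. With the trend of each library over length removed, the log2 fold change was −0.44 for Nr1h2 (unadjusted p = 0.0421 by limma) and −0.50 for Ppard (unadjusted p = 0.0661 by limma). In that fit 262 of 10944 genes (2.39%) had an unadjusted p under 0.05, more than with the trend left in, and 0 genes passed after adjustment.

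Genes that work with the receptors were followed in 6 lists. With the length trend left in, 0 of their genes passed after adjustment by limma. Fabp5 was the only gene of the 6 lists with an unadjusted p under 0.05, against 192 of all 11392 genes tested (1.69%). With the length trend removed, the coregulator Lpin1 was under 0.05 as well (unadjusted p = 0.0374 by limma, in the fit where 2.39% of all genes were under 0.05). The median log2 fold change over all genes tested was 0.01, with 5838 higher and 5554 lower with TSLP. The first list held 20 other nuclear receptors that pair with RXR, bind lipid-derived ligands or work with PGC-1. Of these 13 were tested, 6 higher and 7 lower, with a median of −0.14 that ranged from −0.23 to 0.06 as libraries were left out. Nr4a1 and Nr4a2, receptors induced by T cell receptor signals, had the most reads (normalized counts of 26650 ± 7949 and 6703 ± 524.9 with PBS, 23120 ± 5182 and 6134 ± 1304 with TSLP, SD, n = 2), followed by Rora. Their log2 fold changes were −0.19 and −0.14, and that of Rora was 0.24.

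All 20 coregulators were tested, and 15 were higher and 5 lower with TSLP, with a median of 0.27. The list holds long genes, with a median of 8828 bases of exon against 4466 over all genes tested. Its summed level was 2432 cpm (reads per 1000000 reads on genes) in PBS 1 and 3756 in PBS 2, against 3679 in TSLP 1 and 3346 in TSLP 2, and PBS 1 alone was low. Without PBS 1 the median was −0.06, and with the length trend removed it was 0.15. Ncor1, the corepressor that holds unliganded receptors silent, had a log2 fold change of 0.00, and the coactivators Ncoa3 and Ncoa2 had 0.16 and 0.40.

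Known LXR targets lay on both sides of 0. Of 15 listed, 10 were tested, 4 higher and 6 lower with TSLP, with a median of −0.06. Among the untested, Scd1 had 29 reads in PBS 1 and 6 in PBS 2, against 1 in TSLP 1 and 0 in TSLP 2. Pltp had 14 reads in PBS 2 only, Lpl had 1 in TSLP 1 only, and Abcg5 and Abcg8 had none. Srebf1, the regulator of fatty acid synthesis that LXR induces, had normalized counts of 2079 ± 191 with PBS and 1964 ± 211 with TSLP (SD, n = 2), and a change of −0.08 on the log2 scale (standard error 0.22). Arl4c and Abca7, a small GTPase and a lipid transporter, had log2 fold changes of 0.20 and −0.14. Of 30 PPAR targets, 10 had no reads in any library and 17 were tested, 8 higher and 9 lower, with a median of −0.03. Cd36, which did not pass the filter, had 0 reads in PBS 1 and PBS 2, against 17 in TSLP 1 and 2 in TSLP 2. Also untested, Plin1 and Fabp1 had 6 and 1 reads in PBS 2 only. Ucp2, a carrier of the inner mitochondrial membrane, had normalized counts of 3737 ± 417 with PBS and 3819 ± 190.2 with TSLP (SD, n = 2), and a log2 fold change of 0.03. Hadha and Acadvl, enzymes of fatty acid oxidation, had −0.03 and −0.29. The 14 targets of PGC-1 were all tested, 7 higher and 7 lower, with a median of 0.00. Atp5b, a subunit of ATP synthase, had a log2 fold change of −0.12, citrate synthase (Cs) had 0.05 and the stress-response factor Nfe2l2 had 0.21.

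Among 24 genes that make or carry ligands, 8 had no reads in any library and 12 were tested, 7 higher and 5 lower with TSLP. Their median was 0.16, and it ranged from −0.20 without TSLP 1 to 0.32 without PBS 2. Fabp5, a carrier that hands fatty acids to PPARδ, had 62 reads in PBS 1 and 39 in PBS 2, against 162 in TSLP 1 and 117 in TSLP 2. Its log2 fold change was 1.48 with a standard error of 0.57 (limma adjusted p = 1.0, 0.0289 unadjusted). Npc2 and Npc1, which move cholesterol out of lysosomes, had log2 fold changes of −0.23 and 0.12, and Pnpla2, which releases fatty acids from stored fat, had −0.09. Of enzymes that make oxysterols, Cyp27a1 and Cyp46a1 had no reads in any library, and Ch25h had 9 reads in PBS 2 only. Cyp7b1, which breaks oxysterols down, had no reads either.

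**Figure D5:**
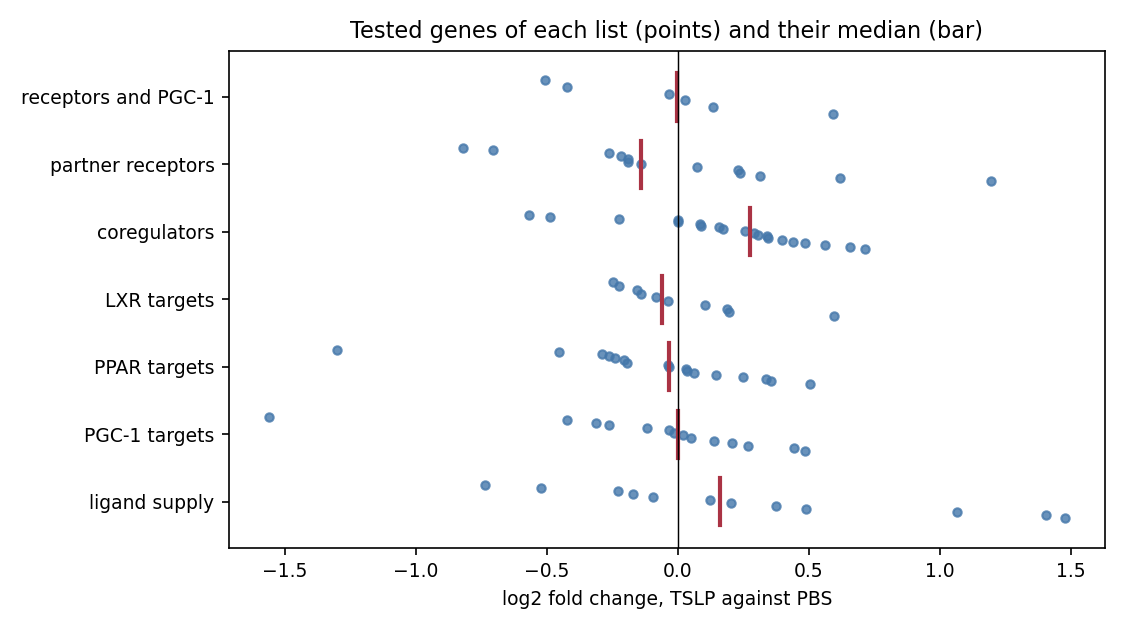
Log2 fold change, TSLP against PBS, of each tested gene (points) of the members and of the 6 lists, with the median of each list as a red bar. The medians of the 6 lists lie between −0.14 and 0.27, and the points of each list lie on both sides of 0.

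Markers were read to see which cells the libraries held. Foxp3 was at 222, 472, 407 and 469.6 cpm in PBS 1, PBS 2, TSLP 1 and TSLP 2, and was lowest in PBS 1. Ikzf2 was at 568, 976, 996 and 953 cpm and Il2ra at 342, 446, 433 and 498 cpm in the same order, both lowest in PBS 1 as well, while Tnfrsf18 was highest there (532, 348, 356 and 427 cpm). Ctla4 was at 1142 to 1284 cpm, Cd4 at 512 to 602 cpm and Cd3e at 232 to 261 cpm. The part of these differences of PBS 1 in the results above was not tested. The 8 markers of visceral fat Treg cells were read in every library and summed to 1059 cpm in PBS 1 and 902 in PBS 2, against 992 in TSLP 1 and 946 in TSLP 2, and in TSLP 2, where Pparg was highest, the sum lay between those of the other libraries. Il1rl1, the most abundant over the 4 libraries (312 cpm in TSLP 2 against 232 to 295 in the others), Cxcr6 (85.5 against 51.4 to 65.7) and Ccr2 (126.3 against 113 to 125.8) were at their highest in TSLP 2. Gata3 (191 against 192 to 302), Areg (30.8 against 34.7 to 51.8) and Nfil3 (122.6 against 125.6 to 194) were at their lowest there, and Klrg1 (32.0) and Il10 (45.2) lay between. Their part in the reads of Pparg was not tested. Of 6 fat cell genes, Adipoq, Cidec and Fabp4 had no reads in any library, and the other 3 had reads only in PBS 2, 31 in all (2.89 cpm).

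Macrophages express Pparg and Nr1h3, and their 8 markers summed to 18.4 cpm in PBS 1 and 11.9 in PBS 2, against 11.3 in TSLP 1 and 11.9 in TSLP 2. Adgre1 and Fcgr1 had no reads in any library, and Cd68, the most abundant of them over the 4 libraries, had 174 reads in PBS 1 and 66 in PBS 2, against 59 in TSLP 1 and 16 in TSLP 2. Csf1r and Marco had 27 and 8 reads in TSLP 2, the library with 92 reads on Pparg and 15 on Nr1h3, and at most 1 read and no reads in the other libraries. The other markers were not highest in TSLP 2, with 1, 43, 37 and 40 reads on Lyz2, 9, 0, 32 and 24 on Cd14 and 23, 19, 4 and 7 on Itgam in PBS 1, PBS 2, TSLP 1 and TSLP 2. By the study's methods, CD4+ T cells were enriched with magnets and then sorted by flow cytometry with a CD4 antibody and a dye for dead cells. The part of macrophages in the reads of Pparg and Nr1h3 was not tested. The 3 B cell genes summed to 0.618, 10.4, 4.08 and 9.35 cpm in PBS 1, PBS 2, TSLP 1 and TSLP 2, and Cd8a and Cd8b1 summed to 7.83 to 13.4 cpm.

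The genes whose pattern over the 4 libraries was most like that of Nr1h2 were Rnf25, Mrpl33 and Atad3a, at distances of 0.06, 0.07 and 0.07 on the log2 scale among 8173 other genes with a mean normalized count of at least 100. Rnf25, for example, had normalized counts of 537 and 398 with PBS and 370.2 and 307 with TSLP. With 4 libraries such a likeness is a description of the order of the libraries.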

How the data were processed

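Sorted Treg cells of 2 PBS and 2 TSLP samples were sequenced. The authors mapped 50-base single-end reads to mm10 with Hisat2, took gene expression values with HTSeq and named DESeq2 for the analysis after that. The deposited values are a signal that the authors made by scaling counts with size factors (0.957 to 1.06). The gene annotation and the strand setting were not given in the sources used here. Within 0.01 of a read, 100% of the values were whole multiples of the step of their library, so reads could be recovered. The step of PBS 2 lies close to 1, and its multiples were checked over all values. Limma with a trend over the mean was fitted on log2(normalized count + 1) to genes with a value of at least 10 in at least 2 libraries, with Benjamini-Hochberg adjustment across the whole table. edgeR and DESeq2 on recovered reads were alternatives. Limma, edgeR and DESeq2 were also run on simulated data, with changes larger than those of the tested members and no trend over gene length. Those runs do not tell how well changes of the members' size would be found. Exon lengths and positions came from GENCODE M21 (GRCm38), where 23307 of the gene names had a unique length. The members and lists were chosen with earlier results of these data known. All 9 members are named, and of each list the 3 genes with the highest mean and those with an unadjusted p under 0.05 by limma. Other genes named are markers or, like the enzymes at no reads, were chosen after their values were seen. The alternatives were other tests, TMM scaling, pseudocounts, filters, the replicate block, gene length and leaving out each library. R 4.3.3, limma 3.58.1, edgeR 4.0.16 and DESeq2 1.42.0 were used.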

Additional observations from a re-analysis of the deposited data

How the results depend on the processing

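Nr1h2 and Ppard stayed lower with TSLP in all 11 other settings, which use the same samples. With each library left out they ranged from −0.71 to −0.30 and from −0.65 to −0.20. There the sign could not change, since the groups did not overlap, as in 28.9% of all genes tested, and it adds no support. The other 4 tested members kept their sign in the 11 settings but not as libraries were left out, with ranges of −0.25 to 1.43 (Pparg), −0.24 to 0.18 (Rxra), −0.26 to 0.31 (Rxrb) and −0.51 to 0.77 (Ppargc1b). The fits without a library leave 1 in its group, which is assumed to vary like the others. The count of genes at an unadjusted p under 0.05 went from 192 to 427 by limma without a trend over the mean, to 358 without a filter on low values, and to 79 to 1858 as libraries were left out, the latter without PBS 2. The cause was not tested. After adjustment the count was 0 in each of these fits. List medians ranged, as libraries were left out, from −0.23 to 0.063 for partner receptors, −0.056 to 0.47 for coregulators, −0.13 to 0.16 for LXR targets, −0.21 to 0.15 for PPAR targets, −0.04 to 0.04 for PGC-1 targets and −0.20 to 0.32 for ligand supply. The last median was 0.014 with at least 10 in all 4 libraries, a filter that tests fewer genes. Per kilobase of the longest transcript, which is shorter than all exons, the levels were 98.1 RPKM for Nr1h2, 21.1 for Rxrb and 18.2 for Ppard.

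The samples share replicate numbers, and whether a number marks a shared day or mouse was not given. Across 11392 genes, the difference of replicate 1 and 2 with PBS and that with TSLP had a correlation of 0.0007. With the replicate number as a block, limma called 0 genes after adjustment and 258 before it, and no member had an unadjusted p under 0.05. With the block and the length trend removed together, chosen after seeing the data, it gave 404 before adjustment, among them Nr1h2 (adjusted p = 1.0, 0.0241 unadjusted) and Ppard (adjusted p = 1.0, 0.0456 unadjusted), of which Ppard was not under 0.05 with the length trend alone removed.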

Other observations

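Some genes of the lists fell outside the rule for named genes and were chosen after their values were seen. Gps2, a subunit of the NCoR corepressor complex, had normalized counts of 1068 and 889.5 with PBS and 772.5 and 625 with TSLP. Its change of −0.49 on the log2 scale (standard error 0.25, limma adjusted p = 1.0, 0.0827 unadjusted) had the smallest p of the coregulators with the length trend left in. Lpin1, which works with PGC-1α and makes diacylglycerol, had 917 and 806 with PBS and 778 and 431 with TSLP. Nr1d2, a heme-binding repressor of the circadian clock, had 1385 and 1336 with PBS and 1560.0 and 1629 with TSLP. Cpt1a, the gate of fatty acids into mitochondria and a PPAR target, had 606 and 593 with PBS and 856 and 669.9 with TSLP, higher by 0.34 on the log2 scale (standard error 0.26). In each of these 4 genes the groups did not overlap, as in 28.9% of all genes tested, and none had an unadjusted p under 0.05 by limma with the length trend left in. With it removed, Lpin1 had a log2 change of −0.70 (unadjusted p = 0.0374 by limma), in a fit where 2.39% of all genes were under 0.05. In that fit Gps2, Nr1d2 and Cpt1a had −0.33, 0.22 and 0.25 (unadjusted p = 0.184, 0.280 and 0.316 by limma).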
